A study of Mus musculus with 12 samples.

Results

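The respiratory chain subunit genes of the nuclear genome were followed in whole bladders of newborn mice. They were taken by name: every gene of complex I whose symbol starts with Ndufa, Ndufb, Ndufc, Ndufs or Ndufv and a digit, the succinate dehydrogenase genes Sdha to Sdhd of complex II, the Uqcr genes of complex III, and the Cox5 to Cox8 genes of complex IV. Assembly factors with an Ndufaf symbol were left out, and only probe sets annotated with a single gene symbol were used. This gave 62 genes of the 18194 genes on the array, of which 35 belong to complex I, 4 to complex II, 8 to complex III and 15 to complex IV by name. The name patterns do not take every subunit: Cox4i1, Cox4i2 and Cyc1 fall outside them and are given with the related genes. They take Ndufa4, which is now also counted with complex IV, and Cox7a2l, which links complexes III and IV into supercomplexes.

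The study measured RNA of FVB/N mice at postnatal day 1 on 12 one-colour Affymetrix arrays. In the SMGA/EGFP group (3 arrays) the promoter of smooth muscle gamma actin, Actg2, drove an enhanced green fluorescent protein. In the SMAA/EYFP group (3 arrays) the promoter of smooth muscle alpha actin, Acta2, drove an enhanced yellow fluorescent protein. The wild-type group (6 arrays) carried neither reporter, and all samples were labelled male, whole bladder and not pooled. Both reporters mark smooth muscle, while the RNA came from every cell of the organ, so fewer cells of a type and less RNA per cell cannot be told apart. Transgenic litters came from FVB/N mothers and transgenic fathers, and the labels name no sire or litter. Nothing states that each array came from a separate litter or extraction, so p-values measure the spread between these samples.

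The respiratory chain carries electrons from NADH, through complex I, and from succinate, through complex II, to ubiquinone, then through complex III and cytochrome c to complex IV, which reduces oxygen. Complexes I, III and IV pump protons, and ATP synthase uses the gradient. Most subunits are encoded in the nucleus and are transcribed under factors such as NRF-1, the ETS factor GABP, YY1 and the oestrogen-related receptors, with the coactivators of the PGC-1 family. Complex IV has isoforms known mainly from striated muscle (Cox6a2, Cox7a1, Cox8b), some of them also from brown fat, and isoforms known from testis (Cox6b2, Cox7b2, Cox8c), beside forms found in all tissues.

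Samples were checked against their labels first. Urothelial and smooth muscle markers were bright on all 12 arrays: Upk3a, a uroplakin, lay between 27600 and 43200 intensity units, and Myh11, the smooth muscle myosin heavy chain, between 49600 and 64300. The array wild type 4 went against the label male: its Xist level was log2 14.89, against 6.59 to 8.04 on the other 11 arrays, and its Y-linked Eif2s3y was log2 5.36, against 11.70 to 12.32. The medians and counts over the members are given with and without it, as are the values of the members and gene groups that the results turn on. The database record numbers in the labels fall into 2 consecutive runs, the first with SMGA/EGFP 1 to 3 and wild type 1 to 3, the second with SMAA/EYFP 1 to 3 and wild type 4 to 6. The labels do not say what a run stands for, and each transgenic group lies in 1 run.

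Promoter sequences are shown for 5 genes that the results turn on: Cox6a1 and Cox8a are the ubiquitous partners of the striated muscle isoforms, Cox8b and Cox7a1 are such isoforms, and Ndufs4 was the member of smallest p between the wild-type runs. Each runs 5′ to 3′ over the bases from 250 before to 50 after the annotated start of transcription in RefSeq on build GRCm38.p6. Capitals mark matches to the motifs searched, and lower case marks all other bases. The windows are chr5:115348909-115349208 (minus strand) for Cox6a1, chr19:7217567-7217866 (minus) for Cox8a, chr7:140900397-140900696 (minus) for Cox8b, chr7:30183921-30184220 (plus) for Cox7a1 and chr13:114388045-114388344 (minus) for Ndufs4.
Cox6a1: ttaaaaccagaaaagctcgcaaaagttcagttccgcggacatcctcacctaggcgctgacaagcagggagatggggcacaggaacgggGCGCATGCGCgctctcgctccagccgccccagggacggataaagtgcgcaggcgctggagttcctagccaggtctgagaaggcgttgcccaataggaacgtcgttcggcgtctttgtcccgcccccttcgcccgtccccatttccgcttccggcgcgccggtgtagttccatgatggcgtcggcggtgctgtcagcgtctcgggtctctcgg
Cox8a: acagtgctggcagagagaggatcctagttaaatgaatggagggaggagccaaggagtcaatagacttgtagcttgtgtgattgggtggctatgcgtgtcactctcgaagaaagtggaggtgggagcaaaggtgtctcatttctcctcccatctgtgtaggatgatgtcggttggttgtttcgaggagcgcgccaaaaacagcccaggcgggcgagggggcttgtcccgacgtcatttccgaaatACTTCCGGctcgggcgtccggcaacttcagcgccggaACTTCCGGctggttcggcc
Cox8b: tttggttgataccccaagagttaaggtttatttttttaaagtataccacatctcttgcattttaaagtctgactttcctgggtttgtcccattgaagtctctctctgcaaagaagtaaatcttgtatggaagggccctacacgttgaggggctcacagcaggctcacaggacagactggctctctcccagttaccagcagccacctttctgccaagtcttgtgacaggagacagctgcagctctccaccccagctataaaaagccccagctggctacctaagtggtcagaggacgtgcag
Cox7a1: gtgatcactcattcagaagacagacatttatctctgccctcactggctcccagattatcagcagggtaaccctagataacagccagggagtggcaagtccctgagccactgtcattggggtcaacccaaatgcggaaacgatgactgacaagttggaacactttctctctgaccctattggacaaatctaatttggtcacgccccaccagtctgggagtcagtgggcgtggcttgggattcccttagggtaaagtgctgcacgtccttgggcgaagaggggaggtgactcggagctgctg
Ndufs4: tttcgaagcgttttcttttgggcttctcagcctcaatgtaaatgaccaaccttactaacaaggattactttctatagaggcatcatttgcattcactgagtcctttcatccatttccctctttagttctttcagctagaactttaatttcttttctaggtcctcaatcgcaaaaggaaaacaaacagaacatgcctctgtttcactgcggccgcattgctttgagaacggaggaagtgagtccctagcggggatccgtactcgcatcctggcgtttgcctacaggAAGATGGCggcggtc

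The 4 motifs were searched on both strands: the NRF-1 core GCATGCGC, an ETS motif CCGGAAGT, a YY1 motif AAGATGGC and the oestrogen-related receptor motif AAGGTCA. The capitals of Cox6a1 hold the NRF-1 core on both strands, in overlapping matches. Cox8a holds 2 ETS matches and Ndufs4 holds 1 YY1 match, downstream of the start, while the letters of none of the 4 motifs stand in the windows of Cox8b and Cox7a1. The RefSeq table matched 51 of the 62 genes. The NRF-1 core stood in 6 of the 51 (11.8%), namely Cox6a1, Ndufa6, Ndufa8, Sdhb, Uqcr11 and Uqcrc1, and in 3.05% of all 27025 genes of the table. The YY1 motif stood in 6 (11.8%), all of complex I, and in 3.19% of all genes. The ETS motif stood in 4 members (7.84%) and 4.31% of all genes, and the receptor motif in 4 (7.84%) and 5.38%. Any of the 4 stood in 19 of 51 members (37.3%) and in 14.9% of all genes. The median GC content was 58.3% for the members' windows and 52.7% for all windows, and its part in these shares was not tested. Within the 100 bases before the start, the shares were 5.88% for the NRF-1 core, 3.92% for the ETS motif, 0.0% for the YY1 motif and 1.96% for the receptor motif, against 1.71%, 2.35%, 0.618% and 1.74% of all genes. These matches describe letters and are no evidence of binding.

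The members were bright and steady genes of this organ. Intensities were taken as log2(intensity + 16) and quantile-normalized, and probe sets with a mean above log2 8.02, the median of all means, were tested. Of the 62 members, 58 passed that filter, among them all 4 of complex II, all 8 of complex III, 34 of complex I and 12 of complex IV. Ndufb4, an accessory subunit of complex I, and the isoforms Cox6a2, Cox7b2 and Cox8b lay below it. Of the 58 tested, 49 had a mean above log2 13, against 2891 of all 22518 probe sets tested. Each member was read from the brightest probe set of its gene, while the probe sets compared include weaker ones of the same genes. That choice by itself raises the share of bright members, and its part was not tested. Over the 12 arrays, the median standard deviation (SD) of a member was 0.097 on the log2 scale, against 0.239 for all probe sets tested. Among probe sets above log2 13 alone it was 0.089 for the 49 members and 0.129 for all 2891, so the gap was narrower among bright probe sets.

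Within the complexes, the median SD was 0.096 for complex I, 0.098 for complex II, 0.104 for complex III and 0.111 for complex IV. The steadiest members were Cox7a2, the ubiquitous partner of Cox7a1, with an SD of 0.035, Ndufb5 (0.037), Cox6b1 (0.043), Uqcrc2, a core subunit of complex III (0.046), and Ndufc2 (0.050). The least steady members tested were Ndufa4l2 (0.612), Ndufb1 (0.441), Cox7c (0.367), Cox6b2 (0.322) and Cox7a1 (0.267). Ndufa4l2, a paralog of Ndufa4 known to be induced by hypoxia through HIF-1, was at log2 12.26, 10.13 and 11.93 on the SMGA/EGFP arrays and 11.97, 11.56 and 11.75 on the SMAA/EYFP arrays. Its 6 wild-type arrays ran from 11.28 to 12.44 with a median of 12.05. The array SMGA/EGFP 2 stood lowest and the groups overlapped. Its ubiquitous paralog Ndufa4 had a mean of 14.87 in SMGA/EGFP, 14.84 in SMAA/EYFP and 14.88 in wild type.

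The members moved together from array to array, by small amounts. Each array's deviation was taken from each gene's mean over the 12 arrays, and the median was taken over the members. It was 0.042, -0.062 and -0.014 for SMGA/EGFP 1 to 3, and 0.065, -0.072 and -0.017 for SMAA/EYFP 1 to 3. For wild type 1 to 6 it was -0.07, -0.022, 0.045, 0.083, 0.056 and 0.035. The arrays of each transgenic group lay on both sides of 0, and all 3 wild-type arrays of the second run lay above it. The median correlation between pairs of members over the 12 arrays was 0.30, and 0.33 within complex I, 0.16 within complex II, 0.30 within complex III and 0.20 within complex IV. An evenly spaced sample of 2252 probe sets tested gave 0.00. That sample was not matched to the members in brightness, and no matched value was computed. The genes closest to the median of the other members were Uqcr11, a small subunit of complex III (r = 0.88), Cox5b (0.86) and Ndufv2, a core iron-sulphur subunit of complex I (0.85), each over 12 arrays. Cox5a (-0.09) and Ndufb1 (0.05) followed it least. These correlations describe arrays that share hybridisation and scaling, and they carry no test.

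**Figure D1:**
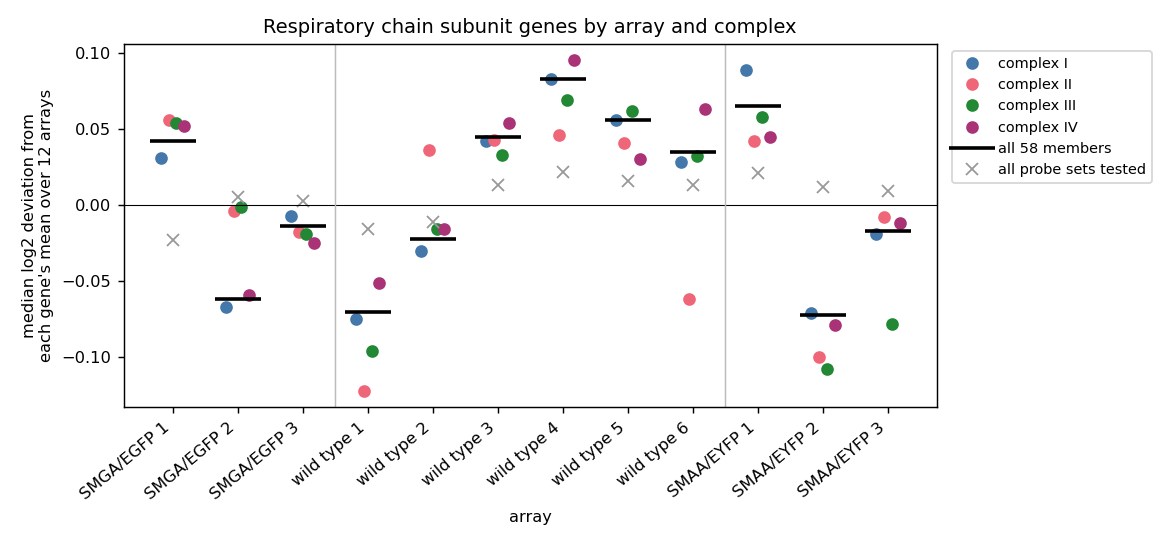
Median log2 deviation of the members from each gene's mean over the 12 arrays (vertical axis) for each array (horizontal axis), by complex (coloured points), over all 58 members tested (bars) and over all probe sets tested (crosses). The bars of both transgenic groups lie on both sides of 0, and those of wild type 4 to 6 lie above it, at 0.083, 0.056 and 0.035.

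The first comparison set bladders with the SMGA/EGFP reporter against wild type. No member passed the threshold of adjusted p 0.05 (limma, Benjamini-Hochberg over all 22518 probe sets), where 14 probe sets (0.0622%) passed in all. Of the 58 members, 44 were lower in SMGA/EGFP, and 52.9% of all probe sets were lower. The sizes were small: the median difference was -0.03 for the members and -0.01 for all probe sets, and 53 of 58 lay within 0.2 of 0. Among probe sets above log2 13, 36 of 49 members (73.5%) and 53.3% of all were lower. Medians by complex were -0.03 for complex I, -0.01 for complex II, -0.02 for complex III and -0.06 for complex IV. The direction did not hold in 2 other readings. Against the 3 wild-type arrays of its own run, 29 of 58 members were lower, and 51.5% of all probe sets, with a median of -0.002. Without the array SMGA/EGFP 2, and with all 6 wild-type arrays kept, 27 of 58 were lower with a median of 0.004. Without wild type 4 the median was -0.02, with 36 of 58 lower and none past the threshold, and leaving out each array in turn gave -0.05 to 0.004.

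Before adjustment 2 members had a p under 0.05 in limma, and 6.94% of all probe sets did. Ndufs1, the largest core subunit of complex I and a carrier of iron-sulphur clusters, was at log2 13.16, 13.14 and 13.25 in SMGA/EGFP. Its wild-type arrays were at 13.43, 13.33, 13.51, 13.49, 13.56 and 13.43, all above the SMGA/EGFP arrays. The difference was -0.27 ± 0.07 (standard error, SE), a ratio of 0.828, with a 95% interval of -0.42 to -0.13, and it did not pass (adjusted p = 0.511, limma). Adjusted p for Ndufs1 ran from 0.278 to 0.954 when each array was left out in turn, and the difference from -0.31 to -0.25. The difference was -0.27 ± 0.07 without wild type 4 and -0.24 ± 0.08 against wild type of the same run. The 6 core subunits of complex I tested were all lower in SMGA/EGFP than in the 6 wild-type arrays, with a median of -0.03, where 52.9% of all probe sets were lower. With only wild type of the same run 2 of the 6 were lower, with a median of 0.02, and without wild type 4 it was 4 of 6, with -0.02.

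Cox7a1, the striated muscle isoform of subunit 7a, was the other member with a p under 0.05. It lay at 8.59, 8.68 and 9.06 in SMGA/EGFP and at 8.95, 8.82, 9.14, 9.47, 9.19 and 9.30 in wild type. The highest SMGA/EGFP array overlapped the lower wild-type arrays. The difference was -0.37 ± 0.17 (SE; adjusted p = 0.718, limma), and -0.19 ± 0.18 against wild type of the same run. It was -0.30 ± 0.17 without wild type 4. Among the 58 members tested, arrays of SMGA/EGFP and wild type did not overlap for 2, both lower: Ndufs1 and Uqcrc2, whose difference was -0.04 ± 0.05. None of the 58 lay wholly higher, and over all probe sets tested 1.12% lay wholly higher and 1.61% wholly lower. Cox8b, below the filter and outside that count, was at 7.40 to 8.43 in SMGA/EGFP and at 5.28 to 7.28 in wild type. It lay wholly higher only after normalization: as deposited, SMGA/EGFP 3 (144.9 intensity units) was below wild type 2 (147.8).

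The other members of smallest p in their complexes were near 0. Cox7a2l was at 14.11, 13.92 and 13.82 in SMGA/EGFP, a difference of 0.18 ± 0.09, while the array wild type 4 reached 14.07. Without that array its difference was 0.24 ± 0.07, with a p of 0.00601 before adjustment (adjusted p = 0.804, limma), and without SMGA/EGFP 1 it was 0.10. Its other probe sets gave 0.06 and 0.10. Ndufc1, an accessory subunit of complex I, differed by -0.13 ± 0.07 and Ndufb11 by 0.09 ± 0.05. In complex II, the flavoprotein Sdha differed by 0.11 ± 0.09, the membrane anchor Sdhc by -0.04 ± 0.08, and the other anchor Sdhd by -0.01 ± 0.08. In complex III, the Rieske protein Uqcrfs1 differed by -0.05 ± 0.07, the core subunit Uqcrc1 by -0.03 ± 0.07 and Uqcr11 by -0.08 ± 0.09. None of these passed in limma. Leaving out 1 array moved most of them by more than 1.5 times: Ndufc1 was -0.07 without SMGA/EGFP 2, Ndufb11 was 0.06 without SMGA/EGFP 1, and Sdha was 0.07 without SMGA/EGFP 3. Uqcr11 was 0.005 without SMGA/EGFP 2, and Uqcrfs1 was 0.006 without SMGA/EGFP 3.

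The second comparison set the SMAA/EYFP reporter against wild type. No member passed, and neither did any other probe set (0 of 22518, 0%; limma). Before adjustment 1082 probe sets (4.81%) and 1 member, Cox7c, had a p under 0.05. Of the 58 members, 35 were lower in SMAA/EYFP, and 49.2% of all probe sets were lower. The median difference was -0.02 for the members and 0.003 for all probe sets, and 55 of 58 lay within 0.2 of 0. Medians were -0.01 for complex I, -0.02 for complex II, -0.03 for complex III and -0.04 for complex IV. Without wild type 4 the median was 0.002 and 29 of 58 members were lower, and without SMAA/EYFP 2 it was 0.01 with 28 lower. With arrays centred on their median in place of quantile normalization, 19 of 58 were lower and the median was 0.03, where the median of all probe sets was also 0.03; relative to all probe sets the members were at -0.006. Against wild type of the same run, 48 of 58 were lower, and 52% of all probe sets, with a median of -0.06. Against only wild type 5 and 6 of that run, 41 of 58 were lower with a median of -0.05, and none passed.

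Cox7c, a small ubiquitous subunit of complex IV, had the widest difference of the members tested. It was at log2 8.57, 8.89 and 8.66 in SMAA/EYFP and at 9.40, 9.61, 9.34, 9.20, 9.40 and 9.07 in wild type, with no overlap. The difference was -0.63 ± 0.19 (SE; 95% interval -1.04 to -0.21), and it did not pass (adjusted p = 0.991, limma). It was -0.65 ± 0.21 without wild type 4, and -0.51 ± 0.22 against wild type of the same run. In SMGA/EGFP the gene was at 9.40, 8.49 and 9.13, a difference of -0.33 ± 0.19 from the same 6 wild-type arrays, which both comparisons share. That value moved with single arrays, to -0.07 without SMGA/EGFP 2 and to -0.53 without SMGA/EGFP 1. The second probe set of Cox7c, below the filter, differed by -0.47 in SMAA/EYFP and -0.05 in SMGA/EGFP. Probe sets of this kind of name (ending in s_at) can read more than 1 transcript, so the identity of this signal is less certain.

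The only other member whose arrays did not overlap was Sdhc, at 12.97, 13.02 and 12.90 in SMAA/EYFP and between 13.03 and 13.24 in wild type. Its difference was -0.15 ± 0.08, or -0.17 ± 0.08 without wild type 4, and its second probe set gave -0.08. Both of these members were lower and none lay wholly higher, while over all probe sets 1.28% lay wholly lower and 1.72% wholly higher. Ndufs1 differed by -0.13 ± 0.07, Ndufs4 by -0.14 ± 0.10 and Ndufa12 by -0.15 ± 0.12. Sdha differed by 0.11 ± 0.09, Sdhb, the iron-sulphur subunit of complex II, by -0.09 ± 0.07 and Sdhd by 0.05 ± 0.08. In complex III, Uqcrh differed by -0.12 ± 0.08, Uqcrfs1 by -0.09 ± 0.07, Uqcrc2 by -0.07 ± 0.05 and Uqcrc1 by 0.01 ± 0.07. Cox5a, a ubiquitous subunit of complex IV, differed by -0.08 ± 0.07. Several of these values rest on 1 array. Ndufa12 was -0.03 without SMAA/EYFP 1 and -0.28 without SMAA/EYFP 3, Sdha was 0.04 without SMAA/EYFP 1 and 0.21 without SMAA/EYFP 2, and Cox5a was -0.006 without SMAA/EYFP 1. Sdhb and Uqcrfs1 were -0.02 and -0.03 without SMAA/EYFP 2, and Uqcrc2 was -0.04 without SMAA/EYFP 3.

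**Figure D2:**
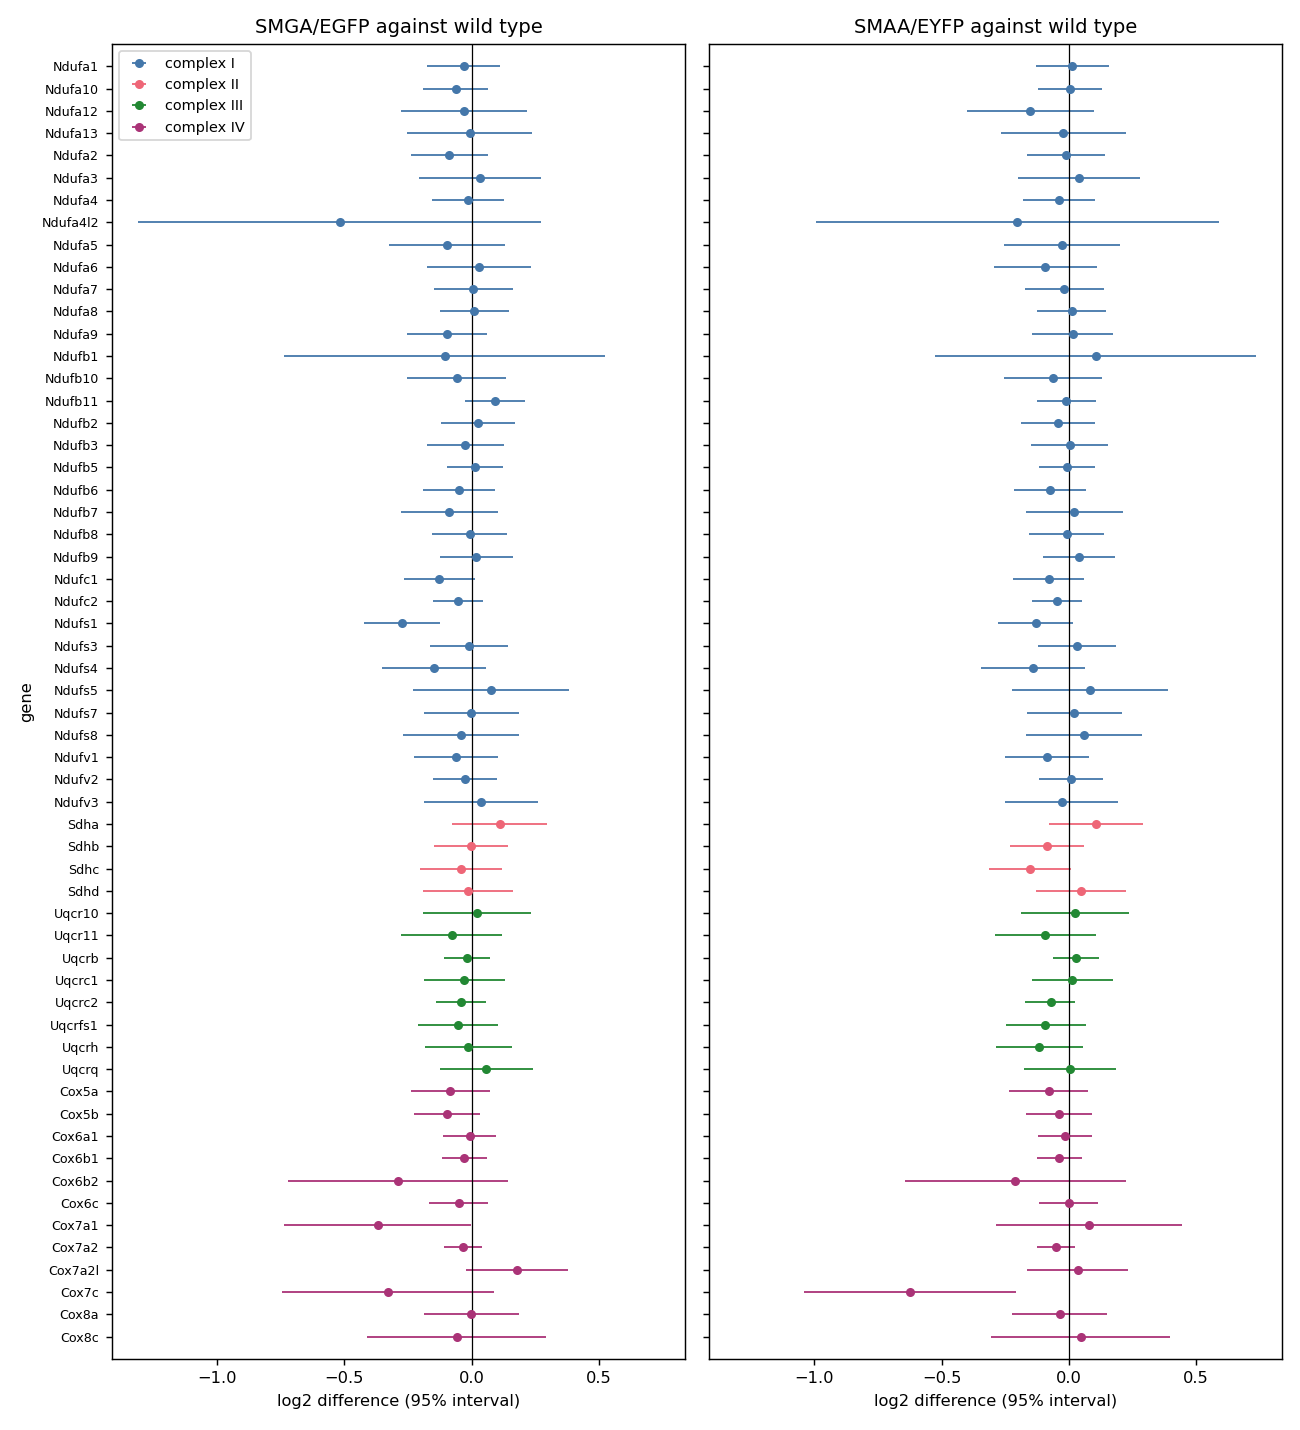
Log2 difference of each of the 58 members tested (rows, coloured by complex) between each transgenic group and wild type, with limma's 95% interval. Most intervals include 0, and those of Ndufs1 and Cox7a1 in SMGA/EGFP and of Cox7c in SMAA/EYFP do not, before adjustment over all probe sets.

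The intervals show how large a difference the arrays could have missed. In both comparisons with wild type, the median arm of a member's 95% interval was 0.16 on the log2 scale. For 57 of 58 members the interval excluded a change of 1 log2 unit in either direction, and for 53 (SMGA/EGFP) and 54 (SMAA/EYFP) it excluded 0.5. Ndufa4l2 had the widest interval, -1.31 to 0.27 in SMGA/EGFP. These intervals cover the spread between arrays, and any loss of response at high brightness was not tested.

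The comparison of both transgenic groups with wild type gave 1 probe set past the threshold (0.00444%), which was no member. Of the 58 members, 41 were lower, against 52.2% of all probe sets, with a median of -0.03. A p under 0.05 before adjustment went to 2 members, and to 4.18% of all probe sets. Ndufs1 differed by -0.20 ± 0.06 (adjusted p = 0.996, limma) and Cox7c by -0.48 ± 0.16. No member's arrays lay wholly above or below wild type, and 0.0444% and 0.107% of all probe sets did. Cox6b2 differed by -0.25 ± 0.17 and Cox7a2 by -0.04 ± 0.03. Without wild type 4 the median over the members was -0.01, with 34 of 58 lower.

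The transgenic groups were also set against each other, and this comparison goes with the run. No member passed, and 18 probe sets (0.0799%) passed in all. Of the 58 members, 31 were lower in SMGA/EGFP, against 53.9% of all probe sets, and the median was -0.002. With the run as a block, which sets each group against its own wild-type arrays, 11 of 58 were lower and the median was 0.07. With arrays centred on their median, which moved the median of all probe sets to -0.12, 56 of 58 were lower with a median of -0.14, or -0.02 relative to all probe sets. Cox7a1 was the member with a p under 0.05 before adjustment, as were 9.32% of all probe sets: its SMAA/EYFP arrays were at 9.12, 9.21 and 9.33, above all 3 SMGA/EGFP arrays, a difference of -0.45 ± 0.20 (adjusted p = 0.516, limma). With the run as a block it was -0.10 ± 0.25. Among the members tested, arrays did not overlap for Sdhc, which was higher in SMGA/EGFP by 0.11 ± 0.09. Nor did they for Ndufa9 (-0.11 ± 0.09), Ndufs1 (-0.14 ± 0.08) and Cox7a1, which were lower. Cox8b, below the filter, lay wholly higher, at 7.40 to 8.43 in SMGA/EGFP and 5.50 to 7.14 in SMAA/EYFP. Over all probe sets 6.49% lay wholly higher and 8.06% wholly lower.

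**Figure D3:**
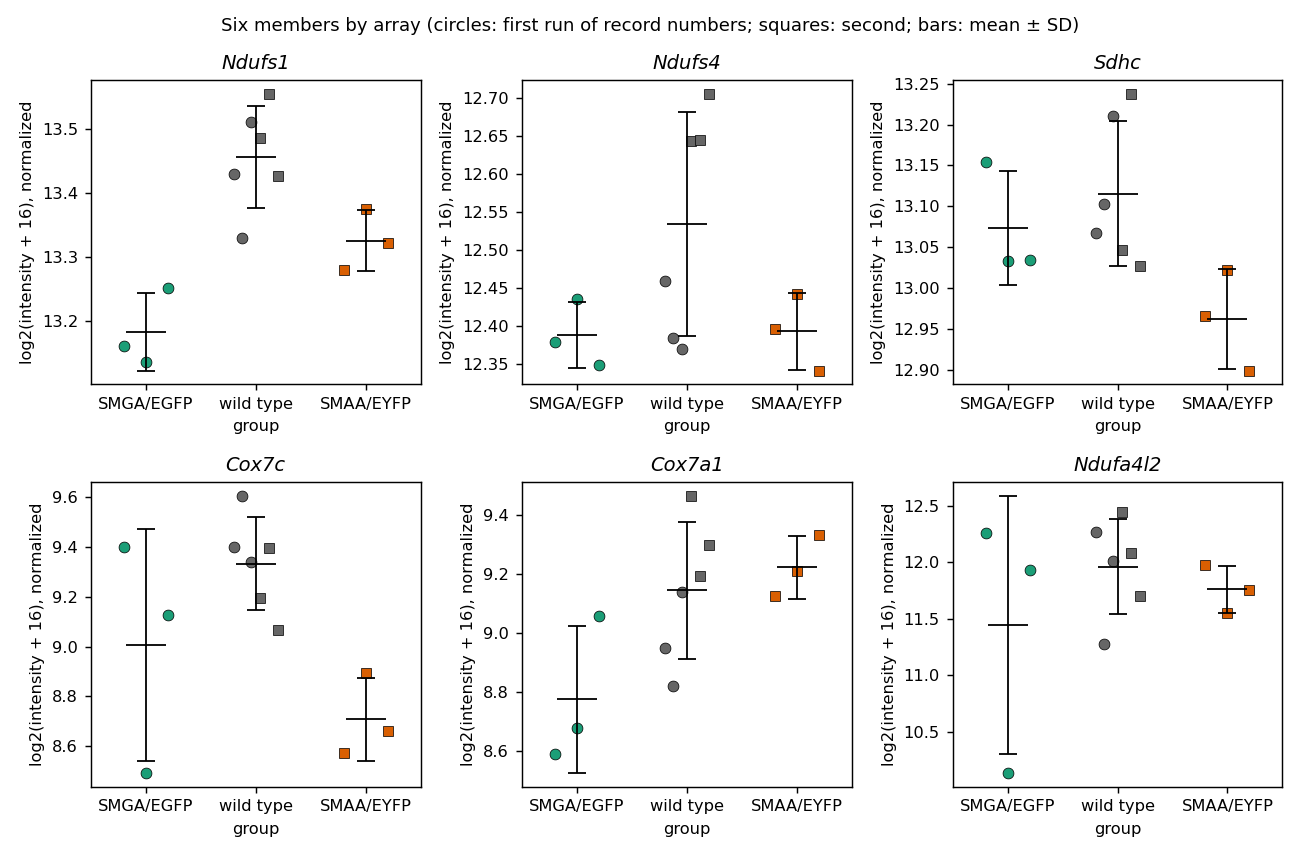
Normalized log2(intensity + 16) of 6 members on each array by group, with the mean and SD as bars, circles for the first run of record numbers and squares for the second. Ndufs1 lies lower on all 3 SMGA/EGFP arrays than on any wild-type array, Cox7c does so on the SMAA/EYFP arrays, Ndufs4 is split by run within wild type, and Ndufa4l2 is widest through the array at 10.13. The vertical axes do not start at 0 and differ between panels.

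The wild-type arrays of the 2 runs were compared because the genotype is the same in both. Here 51 of 58 members were higher in the second run and 7 were lower, while 45.6% of all probe sets were lower. The median difference was 0.08 for the members and 0.02 for all probe sets. Among probe sets above log2 13, 6 of 49 members (12.2%) and 51.9% of all were lower. Medians were 0.08 for complex I, 0.03 for complex II, 0.09 for complex III and 0.04 for complex IV. Without normalization 4 members were lower, and with arrays centred on their median 1 was. No member passed, and no probe set did (0%; limma). Before adjustment 1 member and 8.16% of all probe sets had a p under 0.05. Without wild type 4 the median was 0.06, with 13 of 58 lower, and leaving out each array in turn gave 0.05 to 0.10.

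The member of smallest p was Ndufs4, an accessory subunit of complex I known from Leigh syndrome, whose promoter with its YY1 match is shown above. It was at log2 12.46, 12.38 and 12.37 on wild type 1 to 3 and at 12.64, 12.65 and 12.71 on wild type 4 to 6, a difference of 0.26 ± 0.09 (adjusted p = 0.477, limma), and 0.27 ± 0.10 without wild type 4. Its SMAA/EYFP arrays, of the second run, were at 12.40, 12.44 and 12.34, at the level of the first run. The 2 other probe sets of Ndufs4 that passed the filter differed by 0.29 and -0.13 between the wild-type runs, so they did not run the same way. Arrays lay wholly higher in the second run for 6 members (Ndufa3, Ndufa7, Ndufs4, Ndufv2, Uqcr10 and Cox7a1) and wholly lower for none, and for 7.47% and 6.06% of all probe sets. Cox7a1 differed by 0.35 ± 0.18, or 0.28 ± 0.21 without wild type 4, Ndufv2 by 0.12 ± 0.06, Ndufa9 by 0.16 ± 0.08, Uqcr10 by 0.16 ± 0.11, Uqcr11 by 0.15 ± 0.10 and Uqcrq by 0.16 ± 0.09. Without wild type 1 the last 3 were 0.08, 0.07 and 0.06. Sdhb differed by 0.05 ± 0.08, Sdhd by 0.11 ± 0.10, Sdhc by -0.02 ± 0.09, Cox5b by 0.08 ± 0.07 and Cox6b2 by 0.25 ± 0.23.

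Markers of other cell types differed in their medians between the same wild-type arrays, with no call. All 11 smooth muscle markers were higher in the second run under all 3 scalings, with a median of 0.17, and all 9 neuron and Schwann cell markers tested were lower, with a median of -1.29. All 6 mesothelium markers were higher (median 0.79), and the 17 skeletal muscle markers had a median of 0.05 and a mean of -0.52. None of these markers passed the threshold in limma, and 1, 7, 5 and 1 of them had a p under 0.05 before adjustment, as did 8.16% of all probe sets. The medians were 0.24, -1.23, 0.82 and 0.15 without wild type 4, where 18 skeletal muscle markers passed the filter, and every gene of the first 3 lists kept its side. Their part in the difference of the members was not tested.

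**Figure D4:**
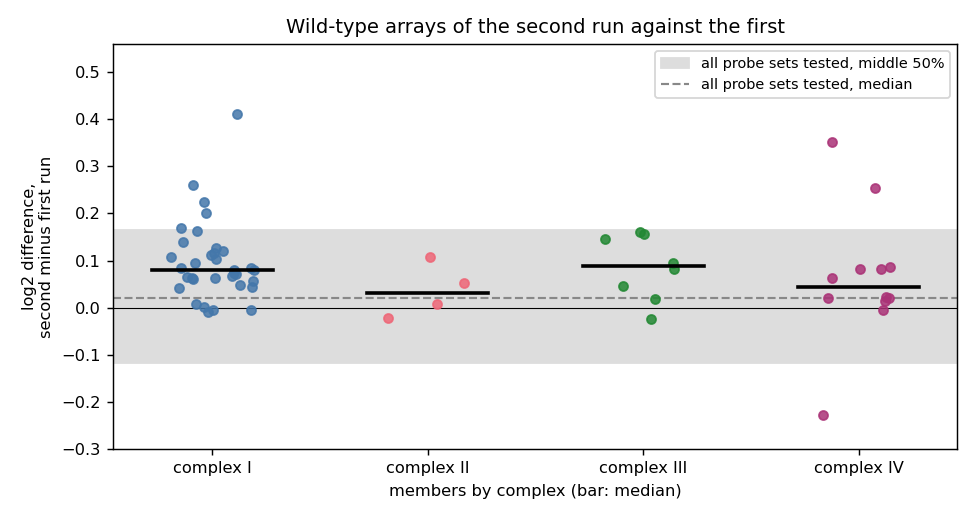
Log2 difference between the wild-type arrays of the second and the first run for each member tested (points), by complex, with the median of each complex (bars), the median of all probe sets tested (dashed line) and their middle 50% (grey band). Of the 58 members 51 lie above 0, most of them inside the band.

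Of the striated muscle isoforms, Cox6a2 and in part Cox8b were higher on the few arrays with a high mean level of skeletal muscle markers, and Cox7a1 was lower there. After normalization, Cox8b was also higher on each SMGA/EGFP array than on any array of the other groups. The 17 skeletal muscle markers tested, of 30 on the list, had a mean level of log2 11.77 on SMGA/EGFP 1, 11.76 on SMGA/EGFP 2 and 11.99 on wild type 2, and between 10.40 and 11.14 on the other 9 arrays. Among the markers, Myh3, the embryonic myosin heavy chain, was at 12.09, 11.87 and 13.01 on those 3 arrays and at 4.69 to 10.01 on the others. Mylpf also stood apart, at 12.57, 12.77 and 13.38 there and no higher than 11.21 on the others. Not every muscle gene did so. Acta1, also on the list, was bright on every array, at 46800 to 68800 intensity units. It was at log2 15.8, 15.56 and 15.74 on the 3 arrays, and Ckm was at 13.01, 11.89 and 12.64. Both genes were lowest on SMGA/EGFP 2, so the marker mean does not describe each gene. Cox6a2, whose product is the heart and skeletal muscle form of subunit 6a, was at 8.92, 9.06 and 8.96 on the same 3 arrays and at 6.13 to 8.27 on the rest. Cox8b was at 8.43, 7.83 and 7.28 there, and at 5.28 to 7.40 on the other 9, so 1 array overlapped. That array was SMGA/EGFP 3, whose marker mean was 10.51. All SMGA/EGFP arrays of Cox8b thus lay above the wild-type arrays (highest 7.28) and the SMAA/EYFP arrays (highest 7.14). As deposited, SMGA/EGFP 3 was at 144.9 intensity units and wild type 2 at 147.8, so the split from wild type rests on normalization. These levels lie below the filter, and the parts of group and marker level were not tested. Cox7a1 ran opposite to the marker mean, at 8.59, 8.68 and 8.82 on the 3 arrays of high marker level and at 8.95 to 9.47 on the others.

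Because 3 arrays stood apart in the marker mean, the relation was read within the other 9. There Pearson's r was 0.11 for Cox6a2 (Spearman's rho = -0.13), 0.21 for Cox8b (rho = 0.10) and -0.28 for Cox7a1 (rho = -0.20), with exact permutation p of 0.787, 0.607 and 0.454 for r. These 9 arrays were chosen by the marker level after seeing the data and span only 10.40 to 11.14 in it. A weak relation among them therefore cannot show where the association over all arrays comes from. Without SMGA/EGFP 1 and wild type 2 alone, r was 0.56 for Cox6a2, 0.55 for Cox8b and -0.73 for Cox7a1. Of the 3 arrays that stood apart, 2 are SMGA/EGFP. Cox6a2 and Cox8b lay below the filter, so the main comparisons did not test them. In the setting without a filter all 62 members were tested, and none passed (limma). The means of Cox6a2 and Cox8b were 8.04 ± 1.66 and 7.89 ± 0.52 (SD, n = 3) in SMGA/EGFP. They were 7.57 ± 0.93 and 6.49 ± 0.87 (n = 3) in SMAA/EYFP, and 7.41 ± 1.02 and 6.33 ± 0.71 (n = 6) in wild type. The ubiquitous partners Cox6a1 and Cox8a differed by -0.01 ± 0.05 and -0.001 ± 0.09 between SMGA/EGFP and wild type, and Cox7a2 by -0.04 ± 0.04. Ucp1, the defining gene of brown fat, where Cox7a1 and Cox8b are also known, was at 8.37 to 72.7 intensity units on all arrays, near the bottom of the scale. Other brown adipocyte markers differed. Adipoq was at 13.3 to 108 units and Cidea at 82.8 to 520, highest on SMGA/EGFP 1, both below the filter. Of 10 such markers measured, 6 passed the filter, with a mean level of log2 10.29 to 10.70 over the arrays.

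**Figure D5:**
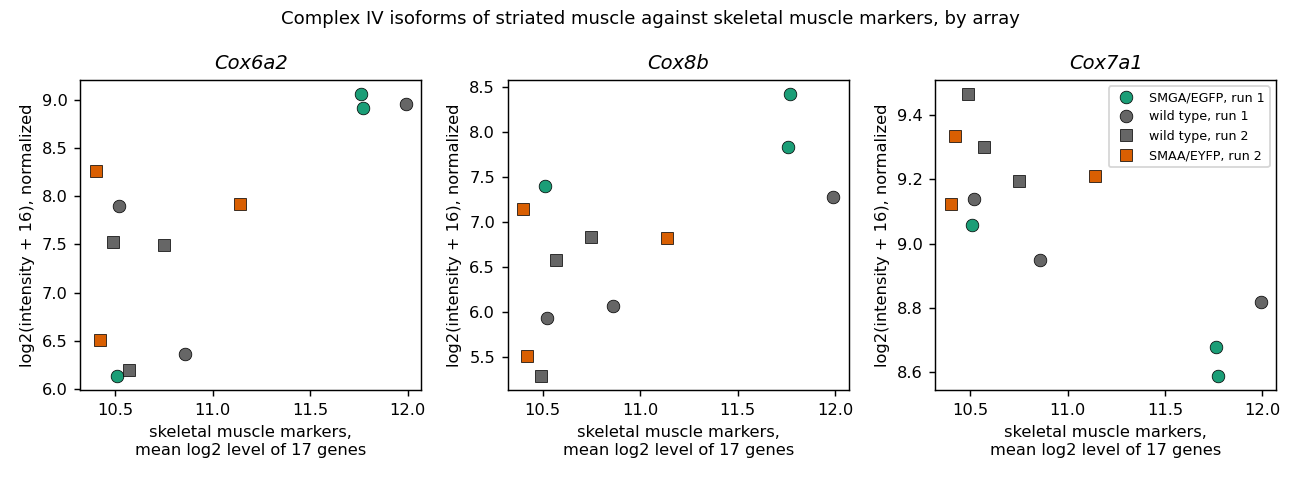
Normalized log2 level of Cox6a2, Cox8b and Cox7a1 (vertical axes) against the mean log2 level of 17 skeletal muscle markers (horizontal axes) on each of the 12 arrays, coloured by group, with circles for the first run and squares for the second. The 3 arrays with marker levels from 11.76 to 11.99 have the highest Cox6a2 and the lowest Cox7a1 levels.

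Of the isoforms known from testis, 2 passed the filter. Cox6b2 was at log2 11.76, 10.77 and 11.23 in SMGA/EGFP, 11.73, 11.18 and 11.09 in SMAA/EYFP and 11.29 to 11.85 in wild type, and differed by -0.29 ± 0.20 and -0.21 ± 0.20 from wild type. Cox8c differed by -0.06 ± 0.16 and 0.05 ± 0.16. Cox7b2 lay between 7.86 and 104.5 intensity units, below the filter, as did Ndufb4, between 12.48 and 119.6. Each was read from 1 probe set, and whether little transcript or a poorly reading probe set gave these values was not tested. Cox6b1, the ubiquitous partner of Cox6b2, was apart from wild type by -0.03 ± 0.04 (SMGA/EGFP) and -0.04 ± 0.04 (SMAA/EYFP). Ndufb1, a small accessory subunit of complex I, was at 8.72, 10.02 and 9.58 in SMGA/EGFP and at 8.72 to 9.98 in wild type, so its spread lay within the groups.

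Genes of the same organelle gave few single results and no call. None of the 15 ATP synthase subunits tested passed in any of the 5 comparisons (limma), nor did any of the 5 chain genes outside the name patterns, 32 assembly factors, 16 citric acid cycle genes, 15 regulators or 70 mitochondrial ribosomal proteins. In SMGA/EGFP against wild type, 12 of 15 ATP synthase genes were lower (median -0.03), as were 62 of 70 ribosomal proteins (-0.06), 14 of 16 citric acid cycle genes (-0.09) and 23 of 32 assembly factors (-0.09). Before adjustment 1, 6, 0 and 3 of them had a p under 0.05, as did 6.94% of all probe sets, and 52.9% of all probe sets were lower. The counts lower were 11, 54, 13 and 23 without wild type 4, with medians of -0.02, -0.04, -0.09 and -0.08. They were 9, 43, 12 and 21 against wild type of the same run, with medians of -0.02, -0.02, -0.05 and -0.07. In SMAA/EYFP the counts lower were 8 of 15, 28 of 70, 7 of 16 and 11 of 32, with medians of -0.004, 0.03, 0.01 and 0.06. The first median turned to 0.003 without normalization and to 0.04 with arrays centred on their median. The others kept their sign under both scalings. These counts were 7, 25, 5 and 9 without wild type 4, with medians of 0.003, 0.03, 0.02 and 0.08. Against wild type of the same run they were 12, 39, 9 and 13, where 52% of all probe sets were lower. The medians there were -0.028, -0.01, -0.015 and 0.028, so those of the ribosomal proteins and citric acid cycle genes changed sign. Between the wild-type runs, 56 of 70 ribosomal proteins were higher in the second run (median 0.07), as were 10 of 15 ATP synthase genes (0.05) and 12 of 16 citric acid cycle genes (0.07), where 45.6% of all probe sets were lower. The medians were 0.05, 0.03 and 0.04 without wild type 4.

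Among these, Atp5o, the stalk subunit of ATP synthase, differed by -0.17 ± 0.06 in SMGA/EGFP (adjusted p = 0.71, limma). Cox18, which inserts a subunit of complex IV into the membrane, differed by -0.47 ± 0.12, Ndufaf1, an assembly factor of complex I, by -0.44 ± 0.13, and Mrps28 by -0.48 ± 0.11, with adjusted p of 0.507, 0.607 and 0.388 in limma. Cytochrome c itself, Cycs, differed by -0.18 ± 0.13. Of the regulators, Ppargc1a, the coactivator of mitochondrial genes, was at 9.58, 9.24 and 9.52 in SMGA/EGFP and at 8.07 to 9.14 in wild type, a difference of 0.75 ± 0.24 (adjusted p = 0.668, limma). Esrra, the oestrogen-related receptor alpha, differed by -0.55 ± 0.18 (adjusted p = 0.680, limma). Ppargc1a differed between the wild-type runs by -0.56 ± 0.23 and Ppargc1b by 0.66 ± 0.24, or by -0.73 ± 0.25 and 0.55 ± 0.27 without wild type 4. Against the wild-type arrays of its own run, at 9.01, 9.14 and 8.79, the SMGA/EGFP arrays of Ppargc1a lay wholly higher, as 3.28% of all probe sets did, and the difference was 0.47 ± 0.23, with an adjusted p of 1 in limma. Leaving out wild type 4 from the 6 gave 0.76 ± 0.25 for Ppargc1a and -0.47 ± 0.17 for Esrra.

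Of the markers of other cells, 3 mesothelium genes fell in SMGA/EGFP against wild type: Gpm6a, at a difference of -2.74 ± 0.34, Lrrn4, at -2.75 ± 0.36, and Muc16, at -2.06 ± 0.30 (adjusted p = 0.00557, 0.00946 and 0.0167, limma). The 6 mesothelium markers had a median of -1.74, and all 6 were lower. The median was -1.68 without wild type 4, and 2 passed. When only wild type of the same run was used, 5 of 6 were lower with a median of -1.34, 2 passing with all arrays in the fit and none with only those 6 arrays. In the other lists no gene passed in limma. Of 14 cell cycle genes 13 were lower (median -0.16), all 8 endothelium markers were lower (-0.28), and 11 of 12 urothelium markers were higher (0.16). These medians were -0.20, -0.27 and 0.09 against wild type of the same run, and -0.20, -0.27 and 0.20 without wild type 4. In SMAA/EYFP all 12 urothelium markers were higher (median 0.31, 0.34 without wild type 4 and 0.37 against wild type of the same run), none past the threshold. All 8 endothelium markers were lower there too (median -0.245, and -0.269 against wild type of the same run). Of 14 cell cycle genes 11 were higher in SMAA/EYFP (0.07), as were 5 of 6 mesothelium markers (0.62), and none passed in limma. The part of any of these in the members' values was not tested.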

How the data were processed

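RNA of 12 whole bladders was hybridised to 12 arrays after 1 round of amplification and biotin labelling, per the labels. GCOS produced the deposited table, which holds 1 intensity on a linear scale for each probe set and array, per the submitters' processing notes. Its algorithm, version, detection calls and filters are not given in the sources used here. The mean intensity between the 2nd and 98th percentile was close to 1500 on each array, so arrays had been scaled by 1 factor. Arrays have no read depth, and their number limits the precision.

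Of 45101 probe sets, 64 controls were left out, and log2(intensity + 16) was quantile-normalized. The 22518 probe sets with a mean above the median of all means were tested with limma 3.58.1 under R 4.3.3 (a linear model over all 12 arrays with moderated, intensity-trended variances, two-sided), with Benjamini-Hochberg adjustment and a threshold of 0.05. The steps were tested on simulated data. A gene was read from its brightest probe set, and 38 of 62 members had more than 1. Gene symbols are those of GEO's platform annotation. An update through RefSeq (GRCm38.p6), looked up for the members, changed 0 of their symbols. Correlations used permutation tests, exact below 10 arrays.

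Named were members past the threshold, up to 3 of smallest p per complex and comparison, isoforms with their partners, complex II, the core of complex III, the 5 largest and smallest SD, members whose arrays did not overlap, and up to 2 genes of smallest p per related list. Members, lists and this rule were chosen with earlier results of these data known. Alternatives were scaling, pseudocount, filter, limma's options, run of record numbers, all probe sets of a gene, a shorter promoter window and each array left out.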

Additional observations from a re-analysis of the deposited data

Results flagged for a closer look

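Among the 6 wild-type arrays, 1 array of a member was asked to stand apart from the others by more than 0.625 of the whole range, Dixon's 95% critical value for 6 arrays. Of 62 members, 4 had such an array, and chance gives about 1 in 20 groups. Uqcr10, a small subunit of complex III, was at log2 13.38 on wild type 1 and between 13.63 and 13.75 on the others. Uqcrq, another small subunit of complex III, was at 13.68 on the same array and between 13.96 and 14.07 on the others. Cox7a2l was at 14.07 on wild type 4, the array that goes against its label male, and between 13.66 and 13.78 on the others. Cox6a1 was at 15.50 on wild type 6 and between 15.39 and 15.43 on the others.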

How the results depend on the processing

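No paired analysis was possible because the labels give the groups no shared replicate numbers. No member passed the threshold in any of the 5 comparisons under any setting run (limma; 23 to 27 settings per comparison, smallest adjusted p 0.2264, between the wild-type runs), and the cause of the other changes was not tested. With arrays centred on their median, the median over the members became -0.119 between SMGA/EGFP and wild type, -0.142 between the transgenic groups and 0.174 (second against first wild-type run), where that of all probe sets was -0.076, -0.119 and 0.089; relative to all probe sets the members were at -0.043, -0.023 and 0.086. With the run as a block, the transgenic groups gave 0.067. Leaving out each array in turn gave -0.051 to 0.004 for SMGA/EGFP (0.004 without SMGA/EGFP 2), -0.061 to 0.013 for SMAA/EYFP (0.013 without SMAA/EYFP 2), -0.038 to 0.024 between them, -0.045 to -0.009 for both and 0.047 to 0.104 between runs.

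Counts of all probe sets past the threshold moved more. For SMGA/EGFP against wild type (14) they were 5 with a filter at the 75th percentile, 9 with only the arrays compared in the fit, 1 with only the 6 arrays of its run and 2 with its run's wild type in a fit without wild type 4 (both chosen after seeing the data), and 6 to 20 when each array was left out. For SMAA/EYFP (0) there were 5 with arrays centred on their median. Between the transgenic groups (18) there were 10 with the 75th percentile, 2 with the run as a block and 4 to 21 with each array left out. For both groups (1) there were 0 with arrays centred. Between the wild-type runs (0) there was 1 without a filter, 1 with the 25th percentile and 0 to 430 with each array left out, the 430 without wild type 3.

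Small differences changed sign. With arrays centred on their median, which put the median of all probe sets at -0.076 for SMGA/EGFP minus wild type, 0.034 for SMAA/EYFP, -0.119 between them and 0.089 between runs, SMGA/EGFP minus wild type was -0.0 for Ndufb11, SMAA/EYFP minus wild type was 0.019 for Cox7a2, and SMGA/EGFP minus SMAA/EYFP was -0.031 for Ndufb11, -0.065 for Sdhb, -0.032 for Sdhc, -0.111 for Uqcrc2 and -0.04 for Uqcrh. Against wild type of its own run, SMGA/EGFP was higher in Sdhd by 0.039 under 3 ways of setting that, and by 0.04 in a fit without wild type 4. With the run as a block, SMGA/EGFP minus SMAA/EYFP was 0.051 for Ndufa9 and 0.046 for Sdhd. Between wild-type runs, Sdhc was 0.076 with arrays centred and 0.032 over all its probe sets, where Cox5b was -0.068 and Sdhd -0.132. With each array left out in turn, SMGA/EGFP minus wild type ran from -0.063 to 0.028 for Sdhd, -0.122 to 0.005 for Uqcr11 and -0.094 to 0.006 for Uqcrfs1, SMGA/EGFP minus SMAA/EYFP from -0.004 to 0.06 for Uqcrc2, and the wild-type runs from -0.019 to 0.104 for Sdhb and -0.089 to 0.019 for Sdhc.

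The planned correlations with the skeletal muscle markers over all 12 arrays, which mix 3 arrays that stand apart with the rest, gave r = 0.73 for Cox6a2 (rho = 0.50), -0.82 for Cox7a1 (rho = -0.64) and 0.68 for Cox8b (rho = 0.55), with permutation p of 0.00772, 0.00181 and 0.0167, and 0.0232, 0.0109 and 0.0334 after adjustment over 6 relations. Without the 2 arrays farthest from the median, r was 0.56, -0.73 and 0.55, within the first run 0.84, -0.88 and 0.67, and within the second 0.28, -0.29 and 0.40. Within the 9 arrays of lower marker level, chosen after seeing the data, it was 0.11, -0.28 and 0.21. The marker mean includes Myh3, which was below the filter level on most of those 9 arrays. Against 6 brown adipocyte markers, r was -0.13, 0.10 and -0.11 over all arrays, 0.02, 0.04 and -0.14 without 2 arrays, 0.06, -0.21 and 0.44 within the first run, and -0.50, 0.89 and -0.95 within the second. In the 100 bases before the start, the YY1 motif stood in 0.0% and the receptor motif in 1.96% of members.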
